A study of Hordeum vulgare with 12 samples.

Results

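VRS5 peaks inside protein-coding genes were the 782 DAP-seq peaks whose summit lay between the annotated start and end of a protein-coding gene of the RefSeq annotation of MorexV3. They were 782 of the 99518 peaks that the list places on chromosomes 1H to 7H, or 0.786% (95% Wilson interval 0.733 to 0.843). The choice used position alone and no measured height or enrichment. The peaks fell in 655 of 30627 protein-coding genes, or 2.14% (1.98 to 2.31). Among peaks with q below 1e-20, summits fell in 184 genes.

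VRS5, also called INT-C, is the barley ortholog of maize TEOSINTE BRANCHED 1 and belongs to the TCP family of plant transcription factors, which bind GC-rich sites in DNA. It restrains tillering and the outgrowth of lateral spikelets. A gene span holds exons, introns and untranslated regions, and binding sites for transcription factors can lie in any of them as well as in the promoter. In DAP-seq, purified genomic DNA without chromatin is incubated with a bait protein synthesized outside the plant, so chromatin does not limit the sites open to the bait.

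The VRS5-FLAG group comprised 6 libraries with VRS5 of cv. Bowman, fused to a FLAG tag, as bait. The GFP-FLAG group comprised 6 control libraries with GFP fused to the same tag. Both baits were made in wheat germ extract and met DNA from young inflorescences of cv. Morex, harvested 4 weeks after sowing at about Waddington stage 4, each replicate from 100 mg. Before peaks were called, libraries of the same bait were merged. A peak therefore has 1 width, 1 pileup and 1 fold enrichment, with no value per library and no replicate error. Intervals below are for counting only, treat peaks as independent, and no p-value was computed. The annotation used here gives each gene its start, its end and its transcripts, but no strand, exons or product. Genes are thus named by their identifiers, without a role, and exonic, intronic and untranslated positions were not told apart. Genome sequence was not used here.

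Genes that held a VRS5 summit were long. Their median length was 13.4 kb (95% interval of the median 11.8 to 15.6, n = 655), against 2.81 kb (2.77 to 2.85, n = 29972) for genes without one. The upper quartile was 27.4 kb for genes with a summit and 4.72 kb for genes without one. The range among genes with a summit was wide. The longest was LOC123441589 on 3H, from 157399140 to 157555235, which at 156 kb is also the longest protein-coding gene of these chromosomes. Its single summit lay 78.8 kb from the end of lower coordinate, at 50.5% of the gene, with a fold enrichment of 3.57. The shortest was LOC123427804 on 2H, from 417419241 to 417419573, with 0.333 kb and a peak of 372 bp that ran past one end of the gene, at a fold enrichment of 3.18.

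A long gene offers more sequence, so the summits were counted per Mb of gene body. The density was still uneven. Genes of 2 to 5 kb had 2.31 summits per Mb (95% Poisson interval 1.87 to 2.83), from 96 summits in 12549 genes. Genes of 5 to 10 kb had 3.73 per Mb (3.11 to 4.45), genes of 10 to 20 kb 9.42 (8.14 to 10.8), genes of 20 to 50 kb 11.8 (10.3 to 13.5) and genes of 50 kb and over 12.1 (9.82 to 14.8). From 2 kb up, the widest gap between neighbouring classes was at 10 kb. The 2 longest classes did not differ detectably, with a ratio of 1.02 (0.800 to 1.30). Genes of 20 kb and longer had 4.67 times the density of genes under 5 kb (exact interval 3.82 to 5.73), and 8.23 times among peaks with q below 1e-20.

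The 778 genes of 20 kb and longer made up 2.54% of the protein-coding genes and 20.1% of their summed length. They held 327 of the 788 pairs of a summit and a gene, or 41.5% (38.1 to 45.0). The pairs exceed the peaks by 6 because 6 summits lay in 2 overlapping genes each. The share of genes with a summit was 0.749% (0.613 to 0.916) at 2 to 5 kb, 10.5% (9.08 to 12.2) at 10 to 20 kb, 27.8% (24.5 to 31.3) at 20 to 50 kb and 47.4% (38.6 to 56.4) among the 116 genes of 50 kb and over. Of the 20 longest genes, 15 held a summit and 5 held none. Among the 5 was LOC123428271 on 1H, with 117 kb, which was singled out after its value was seen.

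**Figure D1:**
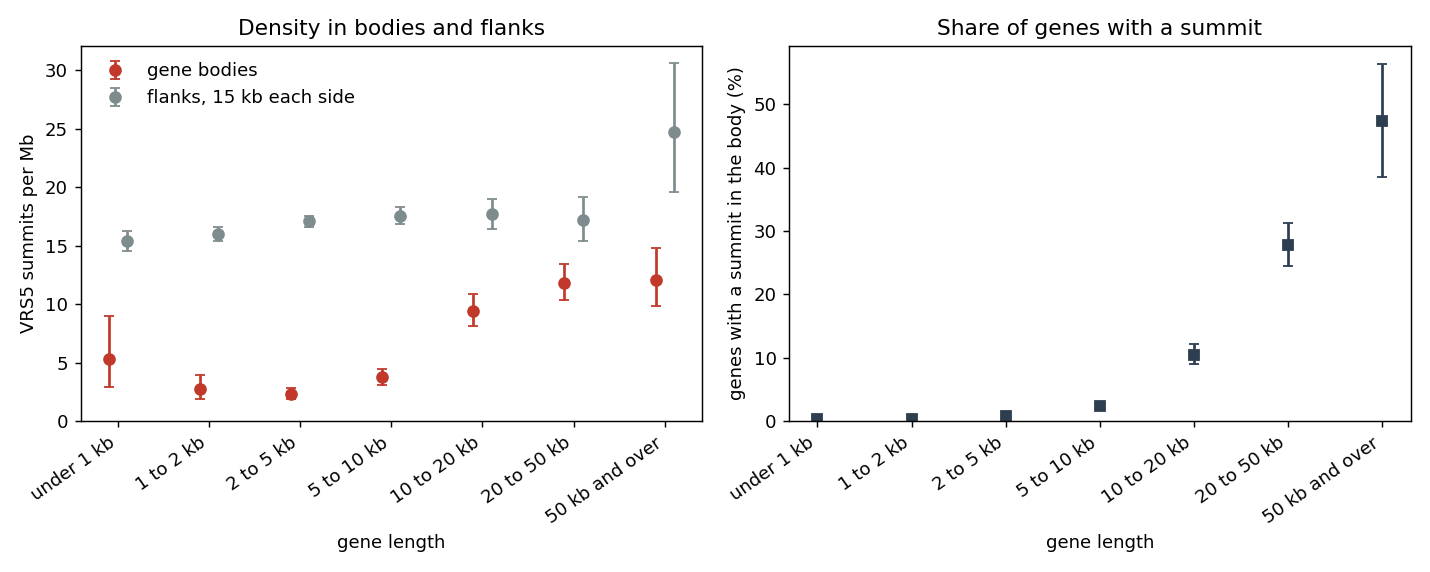
VRS5 summits per Mb (left; y axis) in gene bodies and in the 15 kb flanks on each side, and the share of genes with a summit (right; y axis in percent), by gene length (x axis). Points are pooled values and bars 95% Poisson or Wilson intervals for counting. Body density is 2.31 per Mb at 2 to 5 kb and 12.1 at 50 kb and over, and stays below the flank density in every class.

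The flanks of these genes changed less with length than the bodies. Within 15 kb on either side and outside every protein-coding gene, the density was 15.4 to 17.7 per Mb in the 6 classes up to 50 kb, and 24.7 per Mb (19.6 to 30.7) beside genes of 50 kb and over. The ratio of body to flank was 0.135 (0.11 to 0.166) for genes of 2 to 5 kb and 0.687 (0.577 to 0.816) for genes of 20 to 50 kb. It was below 1 in all 7 classes, and highest at 20 to 50 kb. Greenscreen regions, called from the GFP-FLAG libraries and used by the authors to remove peaks, covered 20.8% of the bodies of genes of 50 kb and over and 8.04% of those of 2 to 5 kb. With the bodies outside these regions as denominator, genes of 20 kb and longer had 5.22 times the density of genes under 5 kb.

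Below 2 kb the body density did not keep falling with shorter length. Genes of 1 to 2 kb had 30 summits, or 2.79 per Mb (1.88 to 3.98). Genes under 1 kb had 14 summits, or 5.35 per Mb (2.93 to 8.98), and these intervals overlap. The density under 1 kb was 2.31 times that of genes of 2 to 5 kb (1.22 to 4.07), the class of lowest density. In 10 of the 14 the peak ran past an end of the gene, and in 1, LOC123441132, it covered the whole gene of 0.503 kb. Among all 782 peaks, 752 or 96.2% (94.6 to 97.3) lay wholly inside a gene and 30 crossed a gene end.

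Longer genes also have more annotated transcripts, and genes with a summit had more than 1 transcript in 34.5% of cases, against 17.9% of genes without one. Within length classes the shares did not differ in 1 direction. At 20 to 50 kb the shares were 48.9% (41.8 to 56.1) with a summit and 46.4% (42.0 to 50.9) without. At 5 to 10 kb the share was lower among genes with a summit, at 24.1% (17.3 to 32.7), against 35.2% (33.8 to 36.5) among those without.

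Inside genes, summits were sparse within 2 kb of the ends and denser farther in. Over all genes, the density was 3.14 per Mb (2.32 to 4.17) within 0.25 kb of the nearer gene end and 3.01 per Mb (2.42 to 3.70) at 1 to 2 kb. It was 7.77 per Mb (6.79 to 8.85) at 2 to 5 kb and 14.2 per Mb (12.2 to 16.4) at 5 to 10 kb. Only genes of at least 10 kb have sequence that deep, so depth and gene length are joined in this order. Within genes of 20 kb and longer alone, the density was 8.35 per Mb (4.45 to 14.3) at 1 to 2 kb from the end, 12.6 per Mb (9.62 to 16.3) at 2 to 5 kb and 15.2 per Mb (12.6 to 18.2) at 5 to 10 kb. At 10 to 25 kb it was lower again, at 10.4 per Mb (8.49 to 12.7) from 101 summits. The intervals of neighbouring classes overlap, so no steady order with depth was seen in these genes. Only 2 summits lay within 0.5 kb of an end of such a gene. In genes under 5 kb the density was 3.61 per Mb (2.6 to 4.89) within 0.25 kb of an end and 1.67 per Mb (1.08 to 2.47) at 1 to 2 kb.

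Just outside genes the density was higher than just inside. It was 3.14 per Mb within 0.25 kb inside and 7.46 per Mb (6.12 to 9.01) within 0.25 kb outside. At 5 to 10 kb it was 14.2 per Mb (12.2 to 16.4) inside and 18.3 per Mb (17.7 to 18.9) outside, with intervals that do not overlap. Inside genes of 20 kb and longer alone, the interval at 5 to 10 kb, 12.6 to 18.2 per Mb, overlapped that outside. Beyond 25 kb from either end, the interior of the longest genes had 13.1 per Mb (8.80 to 18.9) from 29 summits. Positions more than 15 kb from any protein-coding gene had 25.6 per Mb (25.4 to 25.8).

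**Figure D2:**
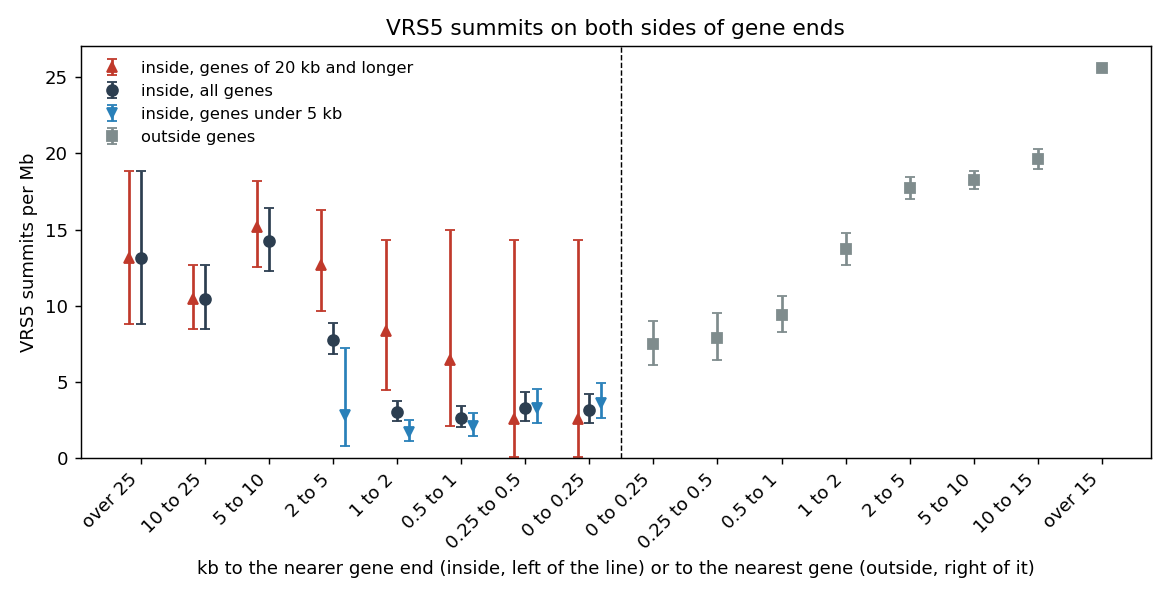
VRS5 summits per Mb (y axis) by distance in kb (x axis), inside genes to the nearer gene end (left of the dashed line) and outside genes to the nearest gene (right of it). Points are pooled values for all genes, genes of 20 kb and longer and genes under 5 kb, with 95% Poisson intervals. Density is 3.14 per Mb just inside and 7.46 just outside the gene end, and reaches 15.2 per Mb 5 to 10 kb inside genes of 20 kb and longer.

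Peaks lay close to the boundary that decides membership on both of its sides. Within 50 bp of a gene end, 10 summits lay inside and 11 outside, and within 100 bp, 19 lay inside and 36 outside. The nearest inside was 14 bp from the end of LOC123452326 on 5H, in a peak from 530484931 to 530485163 with a pileup of 63 and a fold enrichment of 4.35. The next, 20 bp inside LOC123410418 on 7H, was enriched 7.90-fold, and the next, 27 bp inside LOC123406230 on 6H, 3.46-fold. Outside, summits lay 5 bp from LOC123427154 (4.55-fold), 12 bp from LOC123450682 (3.57-fold) and 16 bp from LOC123449951 (7.69-fold). Peaks at 7-fold and above occurred on both sides.

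Along the relative length of genes, the outermost parts held fewer summits. Each gene was divided into 10 equal parts. The first part from the end of lower coordinate had 7.11% of the pairs (5.51 to 9.12) and the last 7.61% (5.96 to 9.68), where an even spread would give each part the same share. Together they held 14.7% (12.4 to 17.4). The 8 parts between them ranged from 8.63% to 12.1%, and the middle 20% of the gene held 20.9% (18.2 to 23.9). No strand was used, so these are both ends of a gene taken by coordinate, and starts and ends of transcription were not separated. The low ends were seen in genes of 20 kb and longer, at 13.8% (10.4 to 17.9) for both outermost parts. In genes under 5 kb these parts had 24.3% (17.9 to 32.0) of 140 pairs, and the intervals of both length groups meet at 17.9%.

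**Figure D3:**
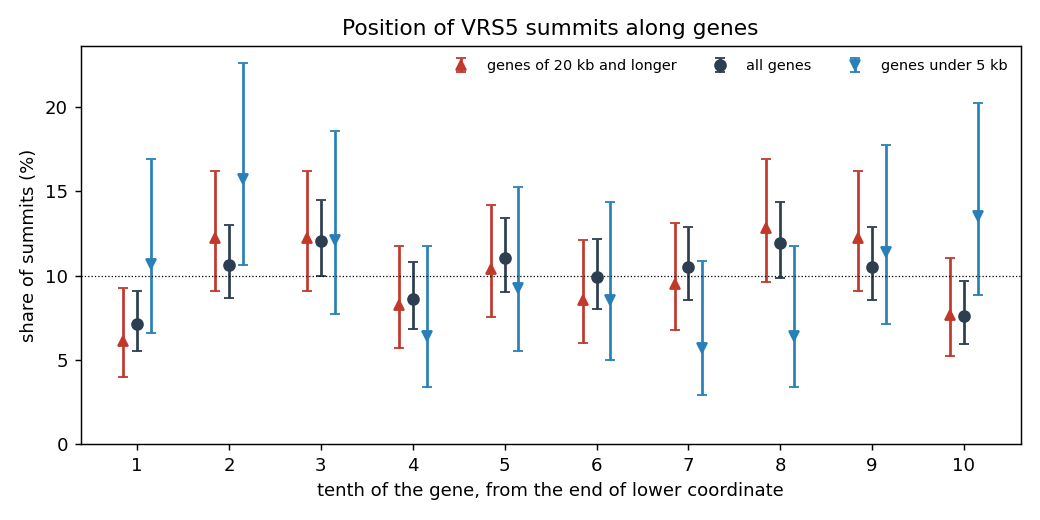
Share of summits in percent (y axis) by 10% part of the gene, counted from the end of lower coordinate (x axis), for all genes, genes of 20 kb and longer and genes under 5 kb. Bars are 95% Wilson intervals, and the dotted line marks an even spread. The first and last parts hold 7.11% and 7.61% over all genes.

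Most genes with a summit had a single one. Of the 655 genes, 546 had 1 summit, 89 had 2, 17 had 3, 2 had 4 and 1 had 5. The 109 genes with 2 or more were 0.356% of all protein-coding genes, the 20 with 3 or more 0.0653%. Nonetheless, genes with 2 or more held 242 of the 782 peaks, or 30.9% (27.8 to 34.3). With q below 1e-20, 21 genes held 2 or more summits. Repeated hits went with length. The median length was 11.3 kb (10.4 to 12.6) for genes with 1 summit, 21.8 kb (17.9 to 29.4) for genes with 2 and 51.2 kb (36.9 to 68.5) for genes with 3 or more. Among genes with a summit, 2.13% (0.585 to 7.43) at 2 to 5 kb had a second one, 20.7% (15.4 to 27.1) at 20 to 50 kb and 50.9% (38.1 to 63.6) of those of 50 kb and over. The 2 genes under 5 kb with 2 summits were LOC123401840 (2.55 kb) and LOC123446528 (4.62 kb).

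LOC123450614 on 4H, from 457685403 to 457781159, had the most summits. Its 5 peaks lay between 21.7 and 61.0 kb from the end of lower coordinate, which left the last 34.8 kb of the gene without a peak. In this order their pileups were 35, 44, 39, 61 and 46 reads and their fold enrichments 4.55, 4.35, 4.67, 7.0 and 3.73. The peak at 7.0-fold stood out from the other 4, which were all below 5-fold.

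LOC123442127 on 3H, from 587395807 to 587480958, had 4 summits at 32.3, 43.0, 56.2 and 64.7 kb. The first was the strongest at 7.08-fold, against 4.14, 4.62 and 5.12-fold for the others. LOC123427760 on 2H, from 608881221 to 608940746, had 4 summits at 9.33, 48.5, 52.1 and 53.9 kb, with fold enrichments of 4.94, 5.02, 4.07 and 3.06. Here the last 3 lay within 5.40 kb of each other. The summit at 9.33 kb lay also in LOC123427759, which overlaps this gene, so that it counts for both.

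The 17 genes with 3 summits ranged from 11 kb (LOC123403387) to 94.8 kb (LOC123408480). In LOC123403387 the summits lay at 1.69, 5.37 and 6.23 kb, with pileups of 79, 66 and 62 reads and fold enrichments of 3.76, 3.04 and 3.35. In LOC123398825, of 32.6 kb, the middle peak had a pileup of 120 reads and a fold enrichment of 8.05, beside neighbours of 3.67-fold and 2.90-fold. In LOC123398318, of 68.5 kb, all 3 summits lay within 15.8 kb of one end, with pileups of 119, 87 and 60 reads. In LOC123397381, of 72.8 kb, by contrast, they were spread over 38.9 kb with pileups of 58, 42 and 54. Strong and weak peaks thus occurred within the same gene. Among the 89 genes with 2 summits, the higher fold enrichment was 1.19 times the lower at the median (1.15 to 1.24), and 2.85 times at most.

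The remaining genes with 3 summits were LOC123396676, LOC123396883, LOC123401160, LOC123405102, LOC123406032, LOC123406157, LOC123428822, LOC123429679, LOC123442191, LOC123444470, LOC123448334 and LOC123450315. Of all 20 genes with 3 or more, 5 lay on 5H, 4 on 6H, 3 each on 2H, 3H and 4H and 1 each on 1H and 7H. The chromosomes hold from 3633 (4H) to 5167 (2H) protein-coding genes, and a difference between them in this count was not tested. Of the 20 genes, 3 have more than 1 annotated transcript, against 18.3% of all protein-coding genes and 34.8% of genes with 2 summits.

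**Figure D4:**
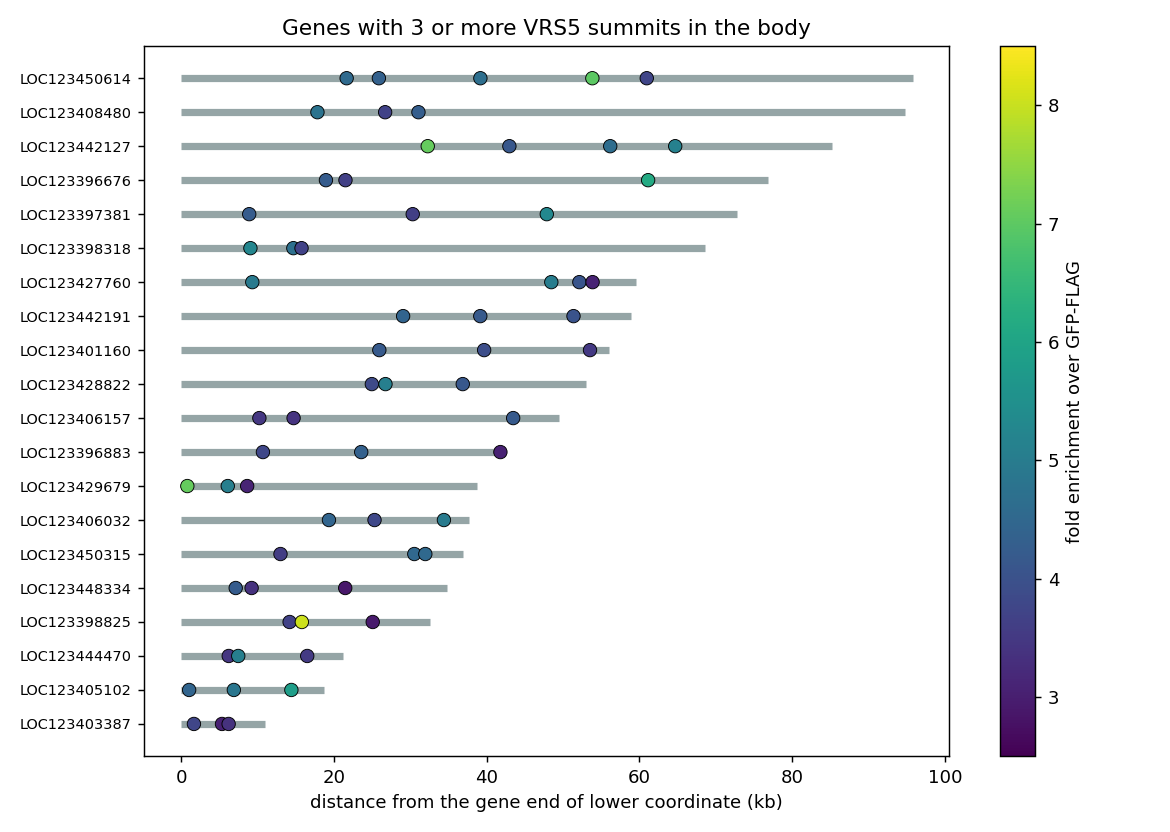
The 20 genes with 3 or more VRS5 summits, drawn as grey bars from the end of lower coordinate (x axis in kb, y axis genes ordered by length). Points are summits, coloured by fold enrichment over GFP-FLAG. LOC123450614 has 5 summits, and the strongest point is the 8.05-fold peak of LOC123398825.

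Neighbouring summits of the same gene lay 6.33 kb apart at the median (4.76 to 7.47, n = 133), with quartiles of 2.93 and 12.2 kb. The closest were 339 bp apart in LOC123402780, and the farthest 56.9 kb. Of the 133, 5 were under 1 kb apart and 15 were 20 kb or more apart. Spacings that recur in the whole list were counted in shared genes too, and their intervals there include the share among other pairs. Of the 126 pairs in a shared gene between 1 and 20 kb apart, 5 were 9900 to 10249 bp apart, or 3.97% (1.71 to 8.95), against 4.14% (3.98 to 4.30) of other pairs. For 3600 to 3749 bp the counts were 4 pairs, or 3.17% (1.24 to 7.88), against 2.07% (1.95 to 2.19). LOC123441518 on 3H, from 81902513 to 81919015, held a strong pair of the longer spacing, with summits 10147 bp apart at 7.95-fold and 8.93-fold and pileups of 102 and 83 reads. LOC123427760 and LOC123403387 each held a pair of the shorter spacing, at 3672 and 3675 bp.

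The strongest peaks inside genes ranked high in the whole list, but not at its top. The highest fold enrichment was 9.23, in LOC123412289 on 7H, and 900 peaks outside genes, 0.904% of the list, exceeded it. No peak in a gene reached 10-fold, or 0 of 782 (upper Wilson bound 0.489%), and a count of 0, read as up to 3, allows 0.384%. Of other peaks, 450 or 0.456% (0.416 to 0.50) did, a share between these 2 limits. At 5-fold and above the shares differed, with 20.1% (17.4 to 23.0) of peaks in genes and 29.9% (29.6 to 30.2) of other peaks.

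The peak in LOC123412289, from 133078931 to 133079184, reached 72 reads. Its computed GFP-FLAG background was 6.91, the lowest value in the list. That value was shared by 18 peaks in genes, this one included, or 2.30% (1.46 to 3.61). It was also found under 2144 other peaks, or 2.17% (2.08 to 2.26). The 9.23-fold of this peak is thus a ratio over a lowest value that many peaks share. The next most enriched peak, in LOC123448380 on 4H from 195924260 to 195924755, had 127 reads over a background of 13.1. Its fold enrichment was 9.07 and its -log10 q, 73.0, was the highest inside a gene. The others among the 10 highest were in LOC123400134 (8.95-fold), LOC123441518 (8.93-fold), LOC123398483 (8.81-fold), LOC123448341 (8.30-fold), LOC123443400 (8.20-fold), LOC123449900 (8.11-fold), LOC123398825 (8.05-fold) and LOC123398424 (8.03-fold). All but LOC123443400, of 4.15 kb, were longer than 10 kb. Genes of 10 kb and longer held 522 of all 788 pairs of a summit and a gene, or 66.2% (62.9 to 69.5).

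The tallest pileup inside a gene was 152 reads in LOC123413596 on 7H, from 10047434 to 10048129, and 15 peaks of the list were taller. Its GFP-FLAG background of 20.3 brought its fold enrichment to 7.19. LOC123405181 followed with 134 reads (7.03-fold) and LOC123403092 with 128 reads (7.64-fold). Then came LOC123448380 with 127 reads and LOC123448341 with 121, both also among the 10 most enriched. The widest peak was 1211 bp, in LOC123448450 on 4H from 238034778 to 238035988, at 75 reads and 4.89-fold. The next widest were in LOC123447128 (1133 bp, 4.2-fold), LOC123395735 (1009 bp, 4.36-fold), LOC123405421 (964 bp, 3.91-fold) and LOC123428693 (947 bp, 5.84-fold). None of the 5 widest peaks was among the 10 most enriched.

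Peaks inside genes were wider than other peaks. Their median width was 306 bp (295 to 315), with quartiles of 241 and 412 bp, against 273 bp (272 to 274) with quartiles of 221 and 347 bp. A width of 500 bp or more was found in 15.9% (13.5 to 18.6) of peaks in genes and in 8.19% (8.02 to 8.36) of other peaks. Peaks outside genes but within 2 kb of one had a median width of 289 bp (280 to 296, n = 1161), and the intervals overlap by 1 bp. Within genes, the median was 321 bp (303 to 335) in genes of 20 kb and longer and 286 bp (265 to 310) in genes under 5 kb, again with overlapping intervals.

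The pileup, the number of VRS5-FLAG reads stacked at the summit, had a scaling that the sources used here do not state. Over all peaks it was almost the same inside and outside genes, with medians of 55 (54 to 56) and 54 (54 to 54) reads. At similar GFP-FLAG background it was not always so, as given below. It varied with the gene, at 57 reads (55 to 59) in genes of 20 kb and longer and 49 reads (48 to 53) in genes under 5 kb. The GFP-FLAG background was computed from pileup and fold enrichment, not counted from reads. Its median under the peaks was higher in genes, at 12.4 reads (12 to 12.6), against 10.9 (10.9 to 10.9) for other peaks. The fold enrichment, in which the pileup is divided by this background after 1 is added to each, was lower, at 4.12 (4.06 to 4.21) against 4.39 (4.38 to 4.39). By gene length, the background was 12.9 reads (12.2 to 13.4) in genes of 20 kb and longer and 11.1 (10.8 to 11.9) in genes under 5 kb. The fold enrichments of these groups were 4.21 (4.07 to 4.32) and 4.11 (3.98 to 4.24), with overlapping intervals. The median -log10 q was 14.5 (13.9 to 15.1) in genes and 15.9 (15.8 to 15.9) elsewhere.

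Background, enrichment and pileup were close to those of peaks within 2 kb outside genes, whose medians were 12.1 reads (12 to 12.5), 4.11-fold (4.06 to 4.17) and 54 reads (53 to 55). These intervals overlap those of peaks in genes. The peaks more than 15 kb from any protein-coding gene had 10.9 reads, 4.4-fold (4.39 to 4.41) and 54 reads.

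**Figure D5:**
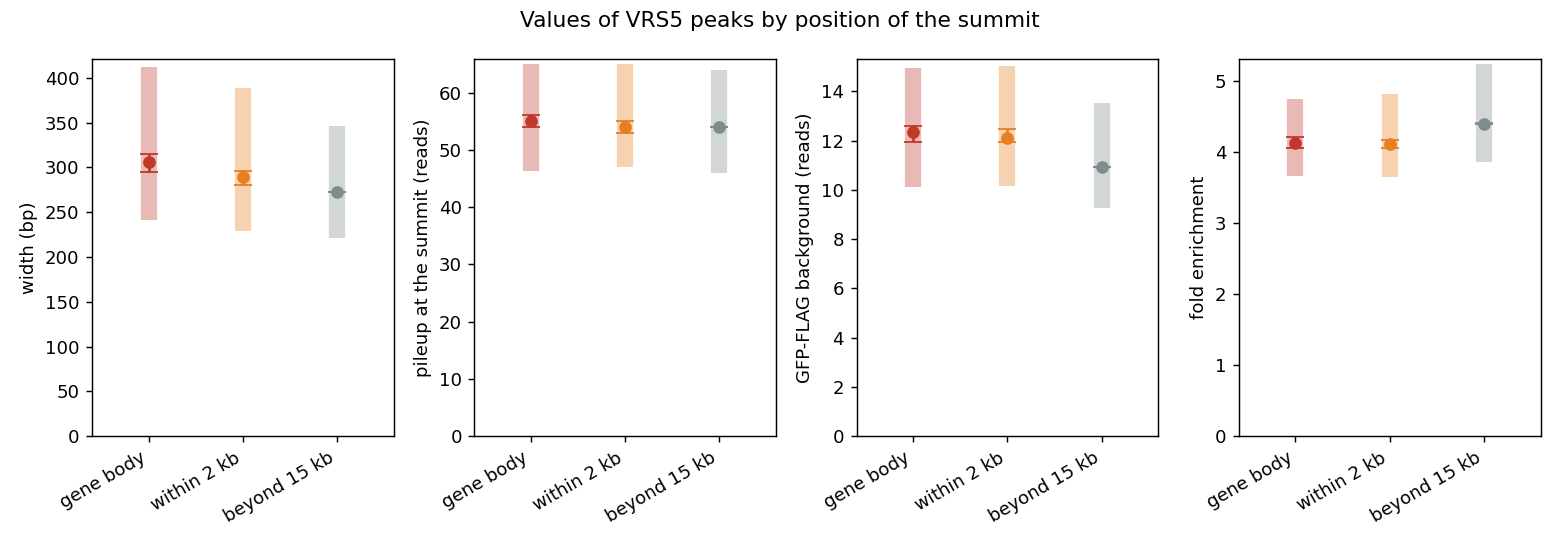
Median (points) with its 95% interval (whiskers) and the quartiles (bars) of width in bp, pileup in reads, GFP-FLAG background in reads and fold enrichment, for peaks with the summit in a gene body, outside but within 2 kb of a gene, and beyond 15 kb. Peaks in gene bodies have median values of 306 bp, 55 reads, 12.4 reads and 4.12-fold.

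The lower enrichment was concentrated at low background. All peaks were divided into 5 classes of equal size by GFP-FLAG background. In the class of lowest background, the median was 4.58-fold for the 92 peaks in genes and 5.11-fold for peaks beyond 15 kb. In the next classes the medians were 4.36 against 4.66 and 4.12 against 4.36. In the next to highest class they were 4.04 against 4.09 and in the highest, with 234 peaks in genes, 3.67 against 3.70, and the intervals overlapped in both. Peaks outside genes but within 2 kb had 4.92, 4.37, 4.18, 4.01 and 3.61-fold from the lowest class up. These point values were also all below those beyond 15 kb, so the pattern was not particular to peaks in genes. The widths differed in the other direction, and not at the lowest background, where the medians were 266 bp (243 to 293) in genes and 263 bp (262 to 265) beyond 15 kb. In the next to highest class they were 328 bp (317 to 362) in genes and 281 bp (279 to 283) beyond 15 kb. In the highest they were 329.5 bp (314 to 347) and 311 bp (308 to 313). The pileup was also lower in genes at low background. In the lowest class its median was 41 reads (39 to 43), against 45 (45 to 46) beyond 15 kb. Peaks within 2 kb outside genes had 43 reads (41 to 45) there. In the highest class the pileup was 66 reads (64 to 69) in genes and 65 (65 to 66) beyond 15 kb. Of peaks in genes, 11.8% lay in the lowest class and 29.9% in the highest.

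Genes with repeated summits had slightly stronger peaks. In genes with 2 or more, the median fold enrichment was 4.29 (4.15 to 4.41, n = 242), the pileup 57 reads (55 to 60) and the -log10 q 16.0 (15 to 17.3). In genes with 1 summit these were 4.07 (3.99 to 4.14, n = 541), 54 reads (52 to 55) and 13.8 (13.2 to 14.4). The peak shared by LOC123427759 and LOC123427760 counts in both groups. Genes with repeated summits were also longer, so summit number and gene length are joined here. Peaks in genes of 20 kb and longer likewise had a pileup of 57 reads (55 to 59). Depth in the gene made less difference to the enrichment, with 4.13-fold (4.04 to 4.27, n = 316) more than 5 kb from a gene end and 4.10-fold (3.97 to 4.23, n = 157) within 1 kb of one.

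Peaks in genes lay farther from the nearest other summit, but not those that shared a gene. The nearest other summit was 18.6 kb away at the median (16.5 to 21.4), against 11.1 kb (11 to 11.2) for other peaks, and 20.6 kb (18.5 to 22.2) for those within 2 kb outside genes. It was 5.52 kb (4.48 to 6.41) for the 242 peaks in genes with 2 or more summits, closer than for other peaks, and 28.2 kb (26.2 to 32.3) for the 541 in genes with 1. The number of summits in the gene partly fixes these 2 distances. Greenscreen regions lay within 1 kb of 4.99% (3.67 to 6.75) of peaks in genes and of 1.93% (1.85 to 2.02) of other peaks. Without all peaks this close to such a region, the share of peaks in genes was 0.761%.

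All 7 chromosomes held such peaks, with 83 on 1H to 124 on 2H. Per Mb of gene body the density was highest on 4H, at 6.81 (5.63 to 8.16), and lowest on 3H, at 4.81 (3.92 to 5.84), a ratio of 1.41 (1.08 to 1.86) between the extremes picked from 7. Divided into 5 equal parts, the chromosomes had 5.22 summits per Mb of gene body (4.49 to 6.03) in the part of lowest coordinates, 8.0 (6.70 to 9.47) in the next, 7.60 (6.34 to 9.05) in the middle part, 5.50 (4.54 to 6.60) in the part after it and 4.72 (4.13 to 5.38) in the last. The middle part and the one before it stood above the last by their intervals. In genes of 20 kb and longer this order was not seen, with 9.05 per Mb (7.11 to 11.4) in the middle part and 17.2 (13.0 to 22.2) in the one after it. Among all peaks, the share inside genes was 1.32% (1.16 to 1.51) in the last part and 0.526% (0.439 to 0.631) in the one before it. These shares do not allow for gene body length, which was 47.6 Mb in the last part and 20.9 Mb in the one before it.

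A few peaks belonged to more than 1 annotated gene. The 6 summits in 2 protein-coding genes had fold enrichments between 3.49 and 4.94, and 9 summits in protein-coding genes lay also in another kind of gene, 5 in pseudogenes and 4 in genes of long non-coding RNA. In addition, 64 genes were touched by a peak whose summit lay outside them. Of the genes the study names, SOC1-like could be placed through its transcript, and its body of 10.3 kb held no summit. The paper places its SOC1-like peak upstream of the gene, with binding in a gel shift assay and activation of a reporter. A count within the body does not bear on that peak.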

How the data were processed

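The authors trimmed reads with Trimmomatic 0.39, mapped them to MorexV3 with BWA 0.7.17, called VRS5-FLAG peaks against GFP-FLAG with MACS2 2.2.7.1 on pooled libraries (genome size 5.4e9), removed peaks on greenscreen regions with bedtools and kept q below 1e-10. Versions follow the submitters' processing notes and the methods. The pileup signal, the fold enrichment ratio over the GFP-FLAG background and the -log10 q values are those the authors deposited per peak. The authors' greenscreen list also carries a score, which was not used beyond the regions themselves. A stricter q threshold removes weak peaks first, and peaks on greenscreen regions are absent from genes as elsewhere.

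The GFP-FLAG background was computed as pileup plus 1, divided by fold enrichment, minus 1. Library depths were not analysed here. Shares have 95% Wilson, densities 95% Poisson and medians 95% order-statistic intervals, and ratios of densities exact conditional ones. Gene bodies, flanks and length classes came from RefSeq spans. Gene assignment and intervals were tested on simulated data. Named genes are those with 3 or more summits, those of the 10 most enriched, 5 tallest and 5 widest peaks, the longest and shortest, those at a gene end and those the study names. LOC123441132, LOC123401840, LOC123446528, LOC123402780, LOC123427759 and LOC123428271 were named after their values were seen. The members and lists were chosen with earlier results of these data known. Python 3.11.15, numpy 2.4.6, scipy 1.17.1, pandas 2.3.3 and matplotlib 3.10.9 were used. Alternatives varied q, the position in the peak, the gene set, the greenscreen margin, merging and length classes. Product groups and motifs were not analysed here, as the annotation used here holds no products, strands or sequences.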

Additional observations from a re-analysis of the deposited data

How the results depend on the processing

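No paired analysis was possible because each bait's libraries were merged, so no replicate has its own value and none could be left out. Of 38 alternatives, 26 left the value within its tolerance, 12 moved it and 0 turned a direction. Only differences and ratios could turn. Counts, shares and the median distance have no direction, and the ratio of the highest to the lowest chromosome cannot fall below 1. For these the count of 0 was fixed in advance. The tolerance differed by kind: a count of genes could change by up to 1.5 times, while a share had to stay within its 95% interval, which is narrower. Genes with a summit thus numbered 518 without genes touching a greenscreen region, within the tolerance for counts. The share of peaks in genes was 0.643% with q below 1e-20, 0.848% with at least 1 base in the gene and 1.36% with all annotated genes, the last 2 by construction; the cause of the first was not tested. Genes with a summit numbered 184 at a q limit of 1e-20 and 13 at 1e-50. Genes with 2 or more numbered 21 and 0 at these limits, as fewer peaks remain. The density of genes of 20 kb and longer over genes under 5 kb was 8.23 with q below 1e-20 (cause not tested), and genes of 10 kb and longer over shorter ones gave 3.61, a split added after seeing the data. The difference in median fold enrichment, -0.261 over all peaks, was -0.503 in the class of lowest GFP-FLAG background and -0.0448 and -0.0262 in the 2 highest. Windows for recurrent spacings, genes touching greenscreen regions and genes of 20 kb and longer for position were also added after seeing the data. Product groups and promoter motifs were not run, since no products, strands or sequences were used here. What depth limits was not tested.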
